A study of Mus musculus with 23 samples.

Results

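Dendritic cells take up antigen in tissues and carry it to T cells, and their subsets are told apart by a small set of surface receptors and transcription factors. Type 1 conventional dendritic cells (cDC1) depend on the transcription factors Irf8 and Batf3 and carry Xcr1 and Clec9a, and in tumors they are known for presenting tumor antigen to CD8+ T cells. Type 2 conventional dendritic cells (cDC2) and related myeloid cells carry lectins such as Cd209a and Clec10a, and plasmacytoid dendritic cells carry Siglech. The 10 genes described here are Itgax, Xcr1, Clec9a, Flt3, Batf3, Irf8, Zbtb46, Cd209a, Siglech and Clec10a, taken by symbol from 24940 symbols, with the transcript of largest mean count standing for each gene. Several of them are not limited to dendritic cells: Itgax and Clec10a are also made by macrophages, and Irf8 by B cells and macrophages.

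RNA was sequenced from fragments of subcutaneous flank tumors grown from 5 mouse cancer cell lines in adult female C57BL/6 mice, each after injection of 500000 cells and taken at endpoint. The models were B16 (B16-F10, a melanoma line), EO771 (EO771.LMB, a breast cancer line), LL2 (lung carcinoma), MC38 (colon carcinoma) and Pan02 (pancreatic ductal adenocarcinoma), with 3 tumors each. A further 8 libraries came from cancer-associated fibroblasts (CAFs), that is FAP+ cells sorted from the CD45- fraction of EO771, LL2, MC38 and Pan02 tumors, 2 per model. Each model is 1 transplanted cell line, and the sources used here do not say whether each library came from a separate mouse, so the p-values measure the spread between these libraries. Total counts ran from 10035180 to 21946495 per tumor, and 3 counts corresponded to 0.144 to 0.295 CPM, the unit used throughout, which is counts relative to the TMM-scaled library size. Summed over 4 leukocyte genes (Ptprc among them), Pan02 tumor 1 stood at 390 CPM against 808 and 951 in Pan02 tumors 2 and 3, and LL2 tumor 3 at 816 against 350 and 507 in LL2 tumors 1 and 2. Ptprc alone stood at 35.1, 113 and 91.1 CPM in Pan02 tumors 1, 2 and 3. In bulk tumor RNA, fewer cells of a type, less RNA per cell and RNA made by other cells, cancer cells among them, cannot be told apart.

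All 10 genes passed the filter on low counts, and 8 had at least 3 counts in every tumor; the other 2 were Xcr1 and Siglech. Seen across the 5 models, 7 of 10 genes differed by the edgeR quasi-likelihood F test at an adjusted p under 0.05 (Benjamini-Hochberg over 15732 genes), where 91.1% of all genes tested did. The 3 that did not pass were Batf3 (adjusted p = 0.054), Irf8 (0.10) and Siglech (0.96). The dendritic cell genes therefore did not differ among models more often than genes in general, and what follows is which model carried which gene.

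**Figure D1:**
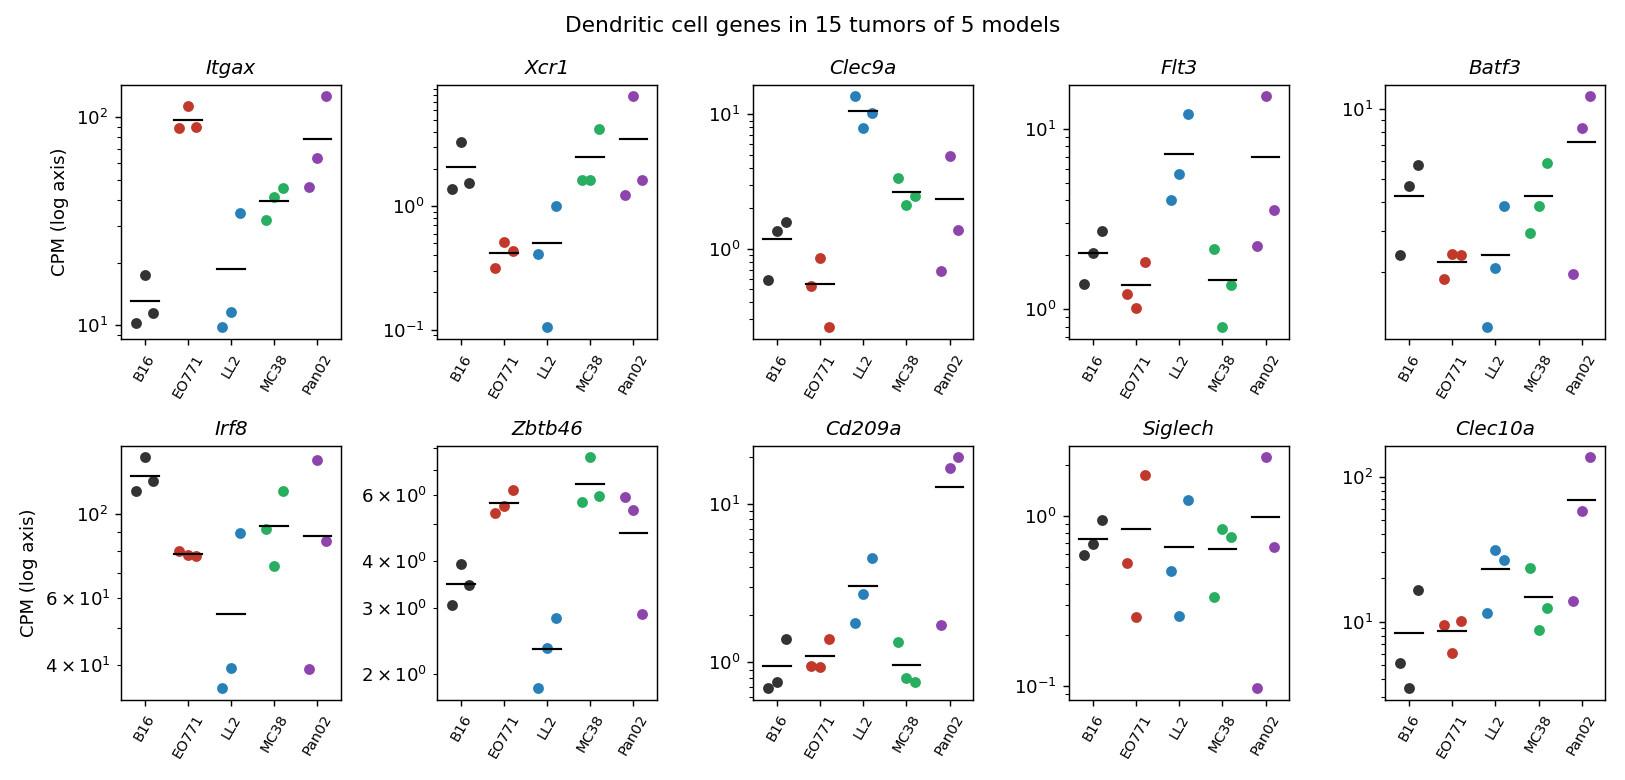
CPM (log axis) of the 10 genes in each tumor, 1 point per tumor, with a bar at the mean of the 3 tumors of a model. The 3 LL2 tumors lie above every other tumor for Clec9a, and the 3 Pan02 tumors are spread widely for most genes.

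Clec9a and Xcr1, the surface markers of cDC1, went apart in LL2 tumors. Clec9a encodes a receptor for the actin of dying cells, and Xcr1 encodes the receptor for the chemokine Xcl1. Because their levels separate, the 250 bases before a RefSeq start of each gene are shown (GRCm38.p6, 5′ to 3′ on the gene's strand), with those of Itgax, whose order of models differs from both. For Itgax that start lies 18 bases upstream of the start of the transcript counted here. Capitals mark the AP-1 motif TGANTCA, and 6.75% of 32851 promoter windows of this length held it on either strand.
Clec9a, chr6:129408612-129408861, plus strand: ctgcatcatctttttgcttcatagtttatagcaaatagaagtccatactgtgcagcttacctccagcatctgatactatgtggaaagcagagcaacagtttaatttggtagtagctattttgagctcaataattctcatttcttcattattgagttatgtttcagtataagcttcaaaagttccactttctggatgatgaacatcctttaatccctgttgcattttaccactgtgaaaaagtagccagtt
Xcr1, chr9:123862030-123862279, minus strand: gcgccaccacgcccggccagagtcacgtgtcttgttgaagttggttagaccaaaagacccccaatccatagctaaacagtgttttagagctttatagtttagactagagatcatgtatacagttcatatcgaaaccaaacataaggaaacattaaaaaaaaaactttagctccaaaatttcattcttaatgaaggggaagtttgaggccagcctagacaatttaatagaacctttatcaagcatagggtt
Itgax, chr7:128129300-128129549, plus strand: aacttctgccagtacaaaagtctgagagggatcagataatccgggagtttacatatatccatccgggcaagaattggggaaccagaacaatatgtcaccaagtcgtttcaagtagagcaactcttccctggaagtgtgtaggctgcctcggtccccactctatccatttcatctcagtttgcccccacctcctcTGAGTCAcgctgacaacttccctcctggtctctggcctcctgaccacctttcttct

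Promoter windows matched 9 of the 10 genes, with no entry for Clec10a. Also searched on both strands in the same windows were the PU.1 core GAGGAA (23.3% of windows), the ETS-IRF composite element (2.30%) and the core of the interferon-stimulated element (2.98%). Among the 10 windows of these genes (Irf8 has 2), AP-1 was found in 2 (Itgax and Zbtb46), the PU.1 core in 1 (Batf3) and the other motifs in 0. These matches describe letters in a short window and were not set against any measurement.

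Clec9a (chr6:129408862-129424764 on mm10) stood at 13.6, 7.87 and 10.3 CPM in the LL2 tumors. It stood at 3.37, 2.14 and 2.46 CPM in MC38, at 0.684, 4.92 and 1.38 in Pan02, at 0.589, 1.37 and 1.60 in B16, and at 0.530, 0.849 and 0.261 in EO771. All LL2 tumors lay above all 12 others, and all EO771 tumors but 1 lay below every tumor of the other 4 models. Clec9a was 7.39-fold higher in LL2 than in the mean of the other 4 models (log2 fold change 2.89, SE 0.39, edgeR adjusted p = 6.3e-05) and 5.39-fold lower in EO771 (-2.43, SE 0.59, adjusted p = 0.0034). Leaving out any 1 tumor kept the LL2 difference between 2.66 and 3.17 on the log2 scale. In the order of means, LL2 was above MC38, the next model (3.96-fold, adjusted p = 0.012), and the neighbours below it did not differ beyond their spread.

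Xcr1 (chr9:123852315-123862029) gave a different order. Its levels were 0.408, 0.104 and 1.00 CPM in LL2 and 0.318, 0.509 and 0.436 in EO771, with 2 to 16 counts per tumor. In the other models it stood at 1.37, 3.30 and 1.55 CPM in B16, at 1.64, 1.64 and 4.25 in MC38 and at 1.22, 7.76 and 1.62 in Pan02. No LL2 or EO771 tumor reached the lowest value of the other 3 models. Xcr1 was lower in EO771 than in the other models (log2 fold change -2.05, SE 0.75, adjusted p = 0.034), a call lost without any 1 EO771 tumor (adjusted p = 0.076 to 0.13) or without LL2 tumor 3 (0.053). In LL2 it was -1.73 (SE 0.71, adjusted p = 0.067), and -2.72 (adjusted p = 0.033) without LL2 tumor 3. It also passed there without Pan02 tumor 1 (adjusted p = 0.036) or Pan02 tumor 3 (0.046), and under DESeq2 (0.023). It was higher in Pan02 (1.78, SE 0.54, adjusted p = 0.011), but without Pan02 tumor 2 the difference was 0.47 (adjusted p = 0.48).

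Per kilobase of transcript, Clec9a stood at 45.1, 102 and 13.9 times the level of Xcr1 in the 3 LL2 tumors, and at 0.562 to 2.79 times in the other 12. The largest of these ratios rests on 2 counts of Xcr1, under the 3 counts that an observation of 0 allows. Clec9a shares 5.59% of its exon bases with the neighbouring gene Clec1b in the GENCODE M21 annotation; Clec1b, looked up for that reason after the values were seen, was at 0 to 0.068 CPM in the LL2 tumors. In LL2 both Clec9a and Flt3 were high while Xcr1, Batf3 and Irf8 had fold changes below 0, of which none passed the test.

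**Figure D2:**
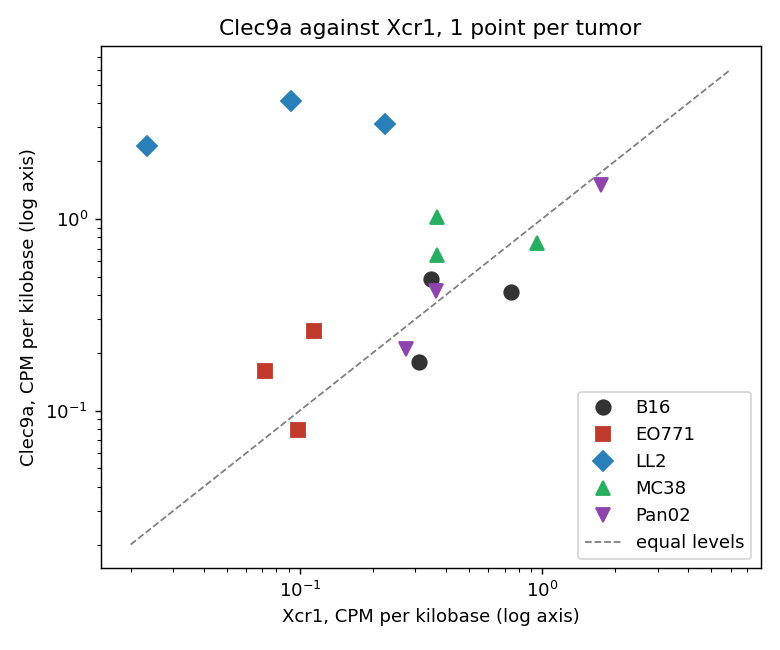
Clec9a against Xcr1 in CPM per kilobase of transcript (log axes), 1 point per tumor, with a dashed line at equal levels. The 3 LL2 tumors lie far above the line, at ratios of 13.9 to 102, and the other 12 lie near it, at 0.562 to 2.79.

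Of the transcription factors of conventional dendritic cells, Zbtb46 differed among the 5 models (adjusted p = 0.0015), while Irf8 and Batf3 did not pass. Irf8 (chr8:120736358-120756692) stood at 12.3 to 50.0 CPM per kilobase and had the highest model mean of the 10 genes per kilobase in every model but Pan02, where Clec10a was higher. It stood at 115, 142 and 123 CPM in B16, at 80.1, 78.0 and 77.7 in EO771, at 91.7, 73.1 and 115 in MC38, at 34.8, 39.4 and 89.5 in LL2 and at 39.0, 139 and 84.9 in Pan02. Irf8 was 1.64-fold higher in B16 than in the other models (log2 fold change 0.72, SE 0.30, adjusted p = 0.048). That call sat at the threshold and was lost without any of 10 of the 15 tumors taken singly, the largest adjusted p being 0.16 without B16 tumor 2. Of the other models none passed, with LL2 at -0.80 (adjusted p = 0.067), and at -1.35 (adjusted p = 0.0077) without LL2 tumor 3.

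Batf3 (chr1:191098414-191108943), which works together with Irf8 in cDC1, stood at 1.95, 8.30 and 11.3 CPM in Pan02. Elsewhere it lay between 1.16 and 5.89 CPM, so 2 of the 3 Pan02 tumors were above all others and the remaining tumor was not. It was higher in Pan02 (log2 fold change 1.21, SE 0.41, adjusted p = 0.020), but without Pan02 tumor 3 the difference was 0.71 (adjusted p = 0.22) and without Pan02 tumor 2 it was 1.08 (0.079). Over all 5 models Batf3 missed the threshold, and without Pan02 tumor 1 it passed (adjusted p = 0.0026).

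Zbtb46 (chr2:181390886-181424388), a transcription factor that marks the conventional dendritic cell lineage, varied little within models, with SDs of 0.429 to 1.64 CPM (n = 3). Its levels were 1.83, 2.35 and 2.82 CPM in LL2, below all 12 other tumors. It reached 5.73, 7.55 and 5.96 CPM in MC38, 5.35, 5.6 and 6.19 in EO771, 3.04, 3.92 and 3.44 in B16 and 5.91, 5.46 and 2.88 in Pan02. Zbtb46 was 2.12-fold lower in LL2 (log2 fold change -1.08, SE 0.23, adjusted p = 0.0020) and 1.66-fold higher in MC38 (0.73, SE 0.20, adjusted p = 0.0075; 0.061 without MC38 tumor 2). In EO771 it was 0.52 higher (adjusted p = 0.045), a call lost without any of 9 tumors taken singly, the largest adjusted p being 0.15 without EO771 tumor 3. So LL2 tumors, highest for Clec9a, were lowest for Zbtb46. It was also at 1.24 to 2.66 RPKM (reads scaled by transcript length and library size) in all CD45-depleted CAF libraries. The part of CAFs in its tumor values was not tested.

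Flt3 (chr5:147330742-147400489) encodes the receptor for the growth factor Flt3l, on which dendritic cell development depends. It stood at 4.01, 5.63 and 12.1 CPM in LL2 and at 2.25, 15 and 3.54 in Pan02. It ranged from 0.794 to 2.69 CPM in the 9 tumors of B16, EO771 and MC38, so all LL2 tumors lay above these 9. The calls against the other 4 models were 1.65 (SE 0.46, adjusted p = 0.010) in LL2 and 1.57 (SE 0.46, adjusted p = 0.0095) in Pan02, on the log2 scale. Each leaned on 1 tumor: without LL2 tumor 3 the LL2 value was 1.07 (adjusted p = 0.13), and without Pan02 tumor 2 the Pan02 value was 0.31 (adjusted p = 0.56). Those tumors also had the highest level of Ccr7, the lymph-node homing receptor of mature dendritic cells, in their models, with 17.6 CPM in LL2 tumor 3 and 55.8 CPM in Pan02 tumor 2 against 4.17 to 19.7 CPM elsewhere. The summed level of 6 T and NK cell genes was 46.6 CPM in LL2 tumor 3 (6.18 and 10.1 in the other LL2 tumors) and 80.1 CPM in Pan02 tumor 2 (17.3 and 39.3 in the other Pan02 tumors). The part of these cells in the Flt3 result was not tested.

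Itgax (chr7:128129568-128150657) encodes CD11c, an integrin of dendritic cells and many macrophages. It stood at 88.2, 112 and 89.9 CPM in EO771 and at 46.4, 63.9 and 125 in Pan02. MC38 tumors had 32.1, 41.5 and 45.5 CPM, LL2 tumors 9.78, 11.5 and 34.7, and B16 tumors 10.2, 17.5 and 11.4. All EO771 tumors lay above every B16, LL2 and MC38 tumor. Itgax was higher in EO771 (3.28-fold, log2 fold change 1.71, SE 0.31, adjusted p = 0.00042) and Pan02 (1.33, SE 0.32, adjusted p = 0.0024), and lower in B16 (-1.89, SE 0.40, adjusted p = 0.00098). It was also lower in LL2 (-1.26, SE 0.38, adjusted p = 0.016), though the adjusted p was 0.073 with LL2 tumor 1 left out and 0.094 with LL2 tumor 2 left out. EO771 tumors thus had the highest mean of this shared myeloid gene together with the lowest means of both cDC1 surface markers. None of these means differed from that of the next model. The edgeR adjusted p was 0.56 for Itgax against Pan02, 0.84 for Xcr1 against LL2 and 0.16 for Clec9a against B16. Clec9a rested on 9.5, 10 and 3 counts in the EO771 tumors. Of 9 macrophage genes, 2 were higher and 0 lower in EO771, where 27.2% and 27% of all genes were, with a summed level of 2085 to 2292 CPM against 526 to 6789 in the other models; their part in the Itgax level was not tested.

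The 2 lectins, which recognise sugars on microbes and glycoproteins, were highest in Pan02. Cd209a (chr8:3743395-3748984) stood at 1.71, 16.9 and 19.8 CPM in Pan02, at 1.77, 2.71 and 4.57 in LL2, and between 0.687 and 1.40 in the 9 tumors of B16, EO771 and MC38. Clec10a (chr11:70166623-70170836) stood at 13.8, 58.0 and 136 CPM in Pan02, at 11.6, 31.4 and 26.4 in LL2, and between 3.48 and 23.6 in the remaining 9. In both cases 2 Pan02 tumors were above all others and Pan02 tumor 1 was not. Cd209a was 9.59-fold higher in Pan02 (log2 fold change 3.26, SE 0.44, adjusted p = 2.8e-05; 2.79 to 3.76 without any 1 tumor). Clec10a was 5.49-fold higher (2.46, SE 0.49, adjusted p = 0.00067; 1.5 to 2.92 without any 1 tumor). In Pan02, 6 of 9 macrophage genes were also higher (32.5% of all genes were), with a summed level of 1584, 3788 and 6789 CPM in tumors 1, 2 and 3 against 526 to 3149 elsewhere, and their part in the lectin levels was not tested.

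Siglech (chr7:55768184-55778925), a sialic acid-binding lectin of plasmacytoid dendritic cells, was barely measured, with 2 to 32.5 counts per tumor. Model means lay between 0.645 ± 0.27 (SD, n = 3) and 0.995 ± 1.1 CPM, and the tumors of all models overlapped. The highest and lowest means, Pan02 and MC38, differed by 0.59 on the log2 scale (SE 0.87, adjusted p = 0.58), so a difference between models was not detectable at this depth. Without Pan02 tumor 2 the Pan02 value against the other models turned from 0.43 to -0.96.

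**Figure D3:**
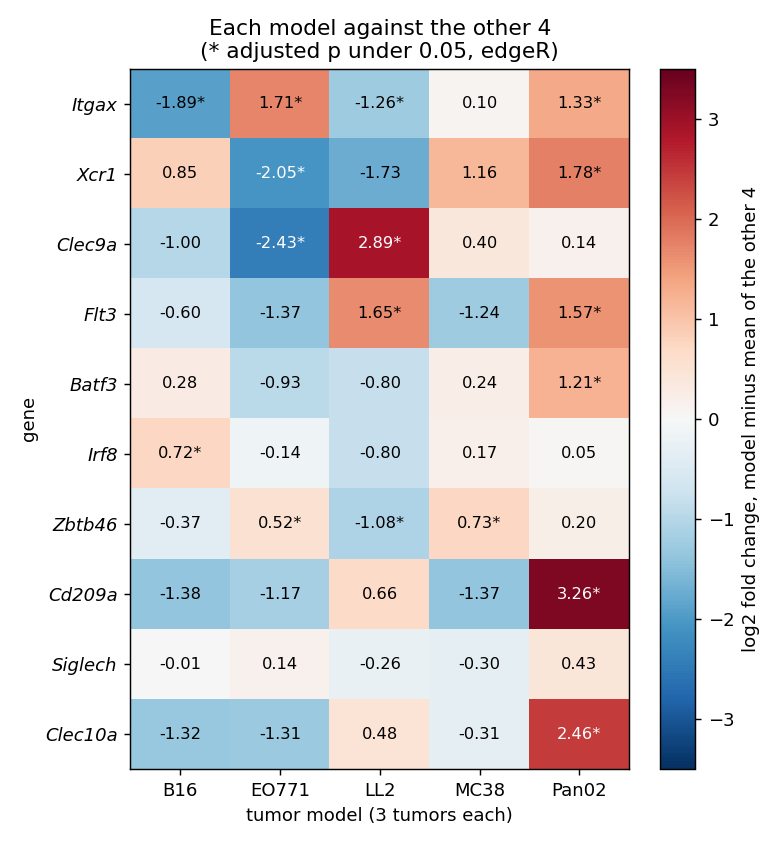
Log2 fold change of each gene in each model, relative to the average of the remaining 4 models, with values printed in the cells and an asterisk at an edgeR adjusted p under 0.05. Pan02 has 6 higher calls, EO771 and LL2 have calls in both directions, and MC38 has 1.

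Counted by model, 6 of the 10 genes were higher and 0 lower in Pan02 tumors, where 32.5% of all genes tested were higher and 28.1% lower. In EO771, 2 were higher and 2 lower (27.2% and 27% of all genes), and in LL2, 2 were higher and 2 lower (23.3% and 18.9%). In B16, 1 was higher and 1 lower (31.9% and 31.6%), and in MC38, 1 was higher and 0 lower (27% and 24.4%). The Pan02 count fell to 3 without Pan02 tumor 2, where 8419 of 16047 genes tested passed, against 9538 of 15732 with all tumors. Without Pan02 tumor 1, 5 genes passed in B16, 8 in EO771, 7 in LL2 and 3 in MC38. In that fit 10419 of all 16032 genes tested passed in B16, 9040 in EO771, 7087 in LL2 and 8552 in MC38. With all tumors these were 9984, 8525, 6643 and 8081 of 15732. The EO771 count was 2 without any 1 EO771 tumor, and the MC38 count was 0 without MC38 tumor 2 and 2 without LL2 tumor 3 or Pan02 tumor 2. The B16 count was 1 without B16 tumor 1 or 2, any EO771 tumor, LL2 tumor 2, or MC38 tumor 1 or 2. In LL2 the 2 that were higher were Clec9a and Flt3, and the 2 that were lower were Itgax and Zbtb46. The median log2 fold change of the 10 genes was 1.27 in Pan02 and -1.05 in EO771, against 0.05 and -0.04 for all genes tested. These 5 comparisons share their tumors, so the values of one are not independent of the next.

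In the order of model means, 4 of 40 neighbouring pairs passed the test, where 27.1% of the neighbouring pairs of all genes, each in its own order, did. Between LL2 and MC38, the pair that differed for Clec9a, 43.8% of all genes passed. Pan02 was above LL2 for Cd209a (4.23-fold, adjusted p = 0.017, with 48.6% of all genes passing). Pan02 was above B16 for Flt3 (3.32-fold, adjusted p = 0.032, with 64.3% of all genes passing). B16 was above LL2 for Xcr1 (4.17-fold, adjusted p = 0.045, with 56.6% of all genes passing). Each of the last 3 was lost when 1 tumor of the pair was left out, and the B16 to LL2 pair also without tumors of other models. The number of pairs was 10 without Pan02 tumor 1, 7 without LL2 tumor 3, and 2 without B16 tumor 1, B16 tumor 2 or LL2 tumor 2. The highest and lowest models differed for 9 of the 10 genes, all but Siglech, as they did for 95.8% of all genes, and for Xcr1, Flt3, Batf3 and Irf8 that call was lost when 1 tumor was left out (adjusted p = 0.051 to 0.10). The widest gap was 19.1-fold, for Clec9a between LL2 and EO771.

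Relative to Ptprc, the gene of the pan-leukocyte protein CD45, the order of models changed for some genes. Ptprc itself stood at 26.3, 46.4 and 31.6 CPM in B16, 59.9, 75.4 and 76.4 in EO771, 37.8, 51.3 and 124 in LL2, 100, 82.8 and 122 in MC38 and 35.1, 113 and 91.1 in Pan02. It was lower in B16 than in the other models (log2 fold change -1.19, adjusted p = 0.013). Per 100 CPM of Ptprc, Irf8 reached 305 to 437 in B16 tumors and 72.2 to 134 in the other 12. Xcr1 stood at 4.89 to 7.10 in B16 on this scale, overlapping Pan02 (1.78 to 6.87). It was at 1.63 to 3.49 in MC38 and at 0.203 to 1.08 in LL2 and EO771. Clec9a remained highest in LL2, at 8.28 to 36.0 against 0.342 to 5.05 elsewhere, while Itgax stood at 118 to 149 in EO771, overlapping Pan02 (56.6 to 138), and at 22.5 to 50.1 in the other models. For 6 of the 10 genes the model with the highest mean was the same on both scales. Xcr1, Batf3, Zbtb46 and Siglech moved to B16 as the highest mean, with ranges that overlapped those of other models. For Zbtb46, Pan02 tumor 1 stood at 16.8, above every B16 tumor (8.45 to 11.6). These ratios are descriptions without a test. The part of cancer cells in the Irf8 level of B16 tumors was not tested.

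**Figure D4:**
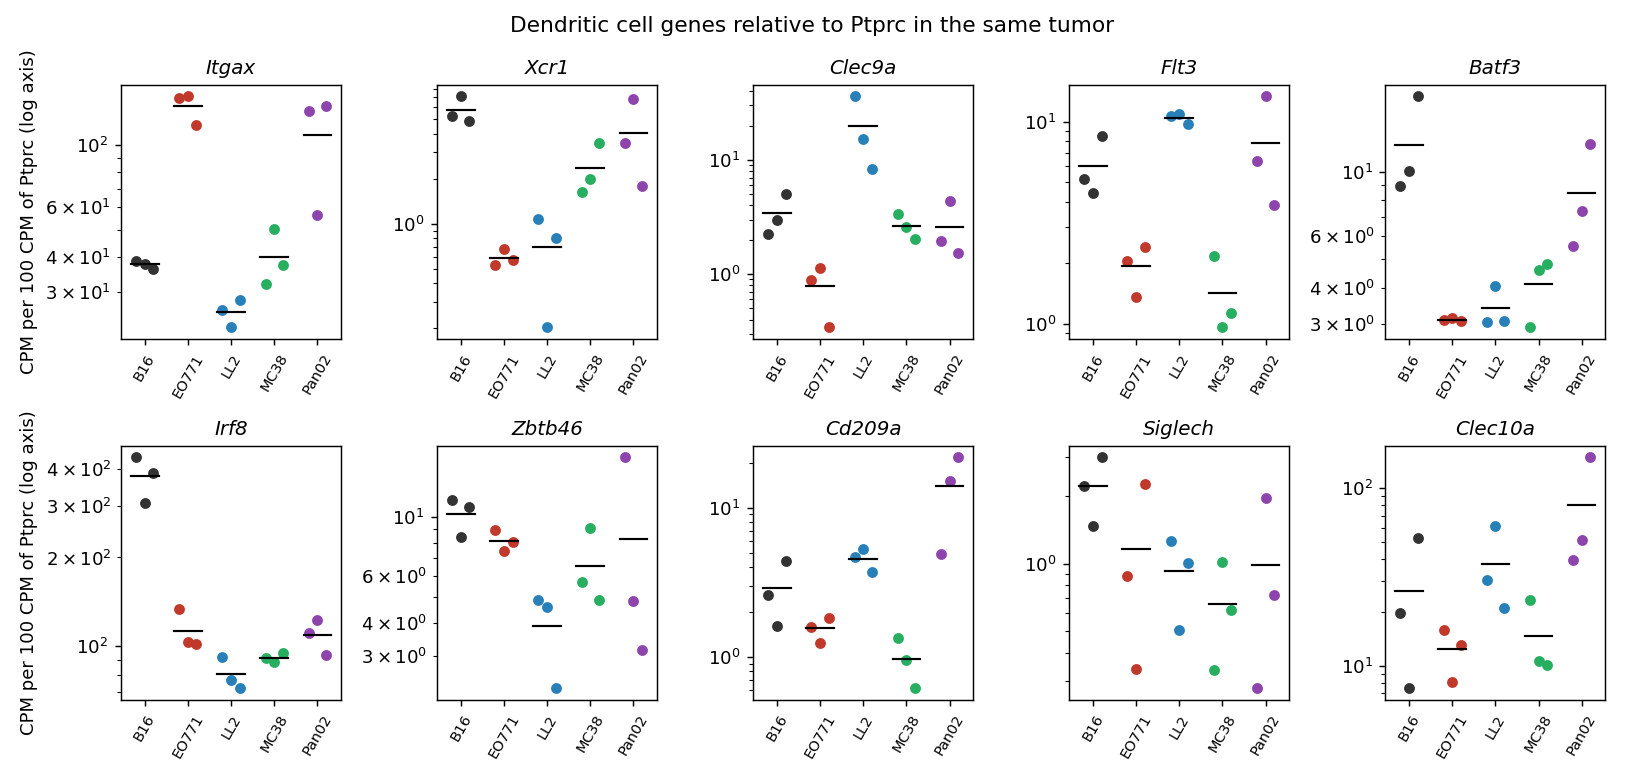
CPM of the 10 genes per 100 CPM of Ptprc in the same tumor (log axis), 1 point per tumor, with a bar at the mean of a model. The 3 B16 tumors lie above all others for Irf8 (305 to 437), and the 3 LL2 tumors for Clec9a (8.28 to 36.0).

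Further genes of each dendritic cell subset were read from fixed lists, whose counts stand beside the shares of all genes: 91.1% differing among the models, 32.5% higher and 28.1% lower in Pan02, 31.9% and 31.6% in B16, 27.2% and 27% in EO771, 27% and 24.4% in MC38, and 23.3% and 18.9% in LL2. Of 10 cDC1 genes, 8 differed among the models. In Pan02 5 were higher and 0 lower, in EO771 1 was higher and 4 lower, in B16 3 were higher and 4 lower (median log2 fold change -0.95), and in MC38 2 were higher and 2 lower. Cd24a, a surface glycoprotein, stood at 92.0 to 147 CPM in Pan02 and at most 9.31 elsewhere. It was also at 66.9 and 58.2 RPKM in the CD45-depleted Pan02 CAFs, where Ptprc was at 0.090 and 0.092, and at most 1.49 in the other CAFs. Cadm1, an adhesion molecule, stood at 265 to 399 CPM in B16 and at most 119 elsewhere, while Wdfy4, Naaa, Nfil3 and Cd24a, named here to complete the count, were lower in B16. Tlr3, a sensor of double-stranded RNA, was high in B16 (42.0 ± 6.7 CPM, SD, n = 3) and MC38 (40.6 ± 11) and low in EO771 (4.37 ± 0.55). None of the 10 was higher in LL2, and Tlr3 was lower there (log2 fold change -1.19, adjusted p = 0.0048), while Clec9a was higher.

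Of 7 tested cDC2 genes, 5 were higher and 0 lower in Pan02, in the same direction as Cd209a and Clec10a. Among them Mgl2, a lectin related to Clec10a, was higher by 4.05 (SE 0.55, adjusted p = 2.8e-05) and Klf4, a transcription factor, by 2.48 (SE 0.27, adjusted p = 4.2e-06), both on the log2 scale. Mgl2 stood at 11.8, 117 and 330 CPM in the Pan02 tumors, with tumor 1 below all EO771 tumors (25.5 to 45.6 CPM). In CAFs Klf4 was at 183 and 58.4 RPKM in Pan02, 77.2 and 80.2 in EO771 and 24.8 to 34.0 in LL2 and MC38. The part of CAFs in its tumor values was not tested. Of 12 genes of mature dendritic cells, 10 were higher and 1 lower in Pan02, and 0 were higher and 6 lower in B16. Among the 10, Pan02 tumor 1 lay above every tumor of the other models for Cacnb3 only, and within their range for the rest. Ccr7, for example, stood at 7.57, 55.8 and 19.7 CPM in the Pan02 tumors and at 4.17 to 17.6 in the other models. Cacnb3, a calcium channel subunit, stood at 80.7 to 155 CPM in Pan02 and 23.8 to 47.8 elsewhere, and was highest in the Pan02 CAFs as well, at 69.6 and 53.6 RPKM against 15.1 to 46.8. The gene that was lower in Pan02 was Fscn1, an actin-bundling protein, at 150 to 260 CPM there and at least 422 elsewhere, and in CAFs at 25.6 and 15.2 RPKM in Pan02 and 153 to 245 in the other models. Of 9 tested plasmacytoid genes, 3 were higher and 1 lower in Pan02, 4 higher and 1 lower in MC38, and 2 higher and 4 lower in B16. Bst2, an antiviral membrane protein, reached 636 CPM or more in every MC38 tumor and no more than 606 in any other, and was at 1090 and 790 RPKM in the MC38 CAFs against 85.5 to 209 in the others. For Cd24a, Cacnb3, Fscn1 and Bst2 the order seen in tumors thus had a counterpart in sorted CAFs, whose part in the tumor values was not tested.

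Of the 6 genes for growth and attraction of dendritic cells, 4 were tested. Flt3l, the ligand of Flt3, was lowest in B16 (3.14 to 4.10 CPM, log2 fold change -1.19, adjusted p = 0.00035) and higher in Pan02 (7.47 to 14.0 CPM, 0.96, adjusted p = 0.00058). In LL2, where Flt3 was high, Flt3l stood at 5.98 to 9.27 CPM and passed in neither direction. Xcl1, the ligand of Xcr1, stood at 0.867 to 3.97 CPM in MC38 and 0.049 to 1.94 elsewhere, and did not differ among the models (adjusted p = 0.26). Ccl4 and Ccl5, chemokines of T and NK cells and macrophages, were higher in MC38, by 1.42 (adjusted p = 0.0032) and 1.96 (0.0030) on the log2 scale. In CAFs Ccl5 was at 20.1 and 30.4 RPKM in MC38 and at most 3.23 in the other models. Ccl4 was highest in the EO771 CAFs, at 4.57 and 5.14 RPKM against at most 1.15 elsewhere. The part of CAFs in the tumor values of both was not tested. Csf2, a growth factor of myeloid cells, was below the filter, at no more than 1.28 CPM.

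The lists of other cell types are read against the same shares of all genes (91.1% by the F test, 31.6% lower in B16, 32.5% higher in Pan02 and 23.3% higher in LL2). All 9 macrophage, all 4 leukocyte and all 7 fibroblast genes were lower in B16, and all 7 fibroblast genes were higher in Pan02, with summed fibroblast levels of 292 to 1149 CPM in B16 and 32711 to 38602 in Pan02. Of 3 tested B cell genes, 3 were lower in B16 and 1 in LL2, while 3 were higher in MC38 and 2 in each of EO771 and Pan02. The B cell gene Ms4a1 was below the filter, at 0 to 0.447 CPM outside Pan02, and Cd79a stood at 4.81 to 8.58 CPM in EO771 and MC38. In CAFs Cd79a was at 3.71 to 5.56 RPKM in EO771 and MC38 and at 0.415 to 1.02 in LL2 and Pan02. The part of CAFs in its tumor values was not tested. Of 6 T and NK cell genes, 1 differed among the models. In LL2, 4 of 5 tested monocyte and neutrophil genes were higher. Their part in the values of the 10 genes was not tested.

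Pooled over the models, tumors high for one gene relative to their model mean were often high for others. Over the 15 tumors, deviations of log2(CPM + 1) from the model mean correlated with r = 0.86 between Flt3 and Irf8, 0.84 between Cd209a and Clec10a, 0.80 between Xcr1 and Irf8 and 0.71 between Xcr1 and Clec9a. The Pan02 tumors spread widely for most genes, and the part of each model in these coefficients was not separated. For Xcr1 and Clec9a, the same tumor was highest for both in Pan02 and EO771, but not in B16, LL2 or MC38. Zbtb46 stood aside, with r between -0.51 (Clec10a) and 0.29 (Xcr1). Among 14318 genes with a mean of at least 1 CPM, the gene whose deviations were most like those of Batf3 was Spi1 (r = 0.98), of Irf8 Prex1 (0.98), of Itgax Dnajb13 (0.98), of Cd209a Sytl1 (0.98) and of Clec10a Folr2 (0.96). For Zbtb46 it was Fhod1 (0.95), for Xcr1 Tmie (0.93), for Flt3 Tlr2 (0.93), for Siglech Ptprr (0.91) and for Clec9a Il12b (0.87). Ccr7 was among the 5 most like genes of both Flt3 (0.92) and Siglech (0.86). These are descriptions over tumors that share models and libraries, and the largest of many coefficients.

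In the sorted CAFs, which serve as background, Xcr1, Cd209a and Siglech stayed near 0, Zbtb46 and Irf8 were measured in every model, and Clec9a was highest in LL2. The CAF values are in RPKM, that is reads scaled by transcript length and library size, normalised apart from the tumor counts, so no test was made between them. All 7 fibroblast genes reached at least 1 RPKM in the mean of each model's libraries, with Fap at 1.89 to 11.4 RPKM. The 2 MC38 libraries were uneven, with a summed level of these genes of 4533 and 913 RPKM, against 1886 to 6674 in the other models. What this difference adds to the MC38 values was not tested. Of the 10 genes, 6 passed the filter, and all 6 differed among the 4 models by limma's F test on log2(RPKM + 1), as 80.4% of 13598 genes did. A gene high in 1 model only, such as Clec9a, Batf3 or Clec10a, passed that filter through this model alone, so the count is no support. In the fit with no filter, 7 of the 10 genes differed, where 49.5% of 22987 genes did, and the adjusted p-values below are from that fit.

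Clec9a stood at 2.22 and 2.52 RPKM in the LL2 CAFs and at 0 to 0.477 in the other 6 libraries (limma adjusted p = 0.00076). If each step in the RPKM values is 1 read, the CAF libraries held 18540000 to 45720000 reads, and the LL2 values rest on 295 and 338 reads. In whole LL2 tumors the level was 4.14, 2.40 and 3.13 CPM per kilobase, on a separate scale and for another transcript of Clec9a. Flt3 followed the same pattern, at 0.748 and 0.718 RPKM in LL2 and no more than 0.080 elsewhere. It was below the filter (adjusted p = 0.00016 with none). In the same LL2 CAF libraries Ptprc was at 0.017 and 0.021 RPKM and Xcr1 at 0.050 and 0.030. The 4 leukocyte genes summed to 1.37 and 1.83 RPKM, of which Coro1a, named for that reason, made up 0.671 and 1.09. In the Pan02 CAFs these 4 genes summed to 17.5 and 29.4 RPKM, of which Cd53 made up 16.1 and 28.1. Clec1b stood at no more than 0.043 RPKM in any CAF library. The part of CAFs in the Clec9a and Flt3 values of LL2 tumors was not tested.

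Itgax and Irf8 were highest in the EO771 CAFs, Itgax at 5.54 and 5.71 RPKM (1.36 and 1.42 in LL2, 0.057 to 0.27 in MC38 and Pan02, adjusted p = 0.00015) and Irf8 at 11.1 and 12.5 (0.741 to 1.75 elsewhere, adjusted p = 0.00023). Clec10a was at 1.00 and 2.2 RPKM in EO771 and no more than 0.131 elsewhere (adjusted p = 0.0054). All 9 macrophage genes reached 1 RPKM in the mean of the EO771 CAFs, with a summed level of 154 and 196 RPKM against 12.5 to 24.0 in the other models, and Ptprc was at 0.947 and 0.902 against 0.007 to 0.092. Their part in the Itgax, Irf8 and Clec10a values was not tested. Batf3 was highest in MC38 CAFs, at 6.53 and 3.89 RPKM against 0 to 0.956 elsewhere (adjusted p = 0.0013). Zbtb46 lay between 1.24 and 2.66 RPKM in all CAF libraries and did not pass with no filter (adjusted p = 0.052). With the filter it passed (0.022), and that call was lost without either EO771 library, 1 LL2 library or 1 MC38 library (adjusted p = 0.054 to 0.105). Xcr1, Cd209a and Siglech stayed below the filter, at no more than 0.121, 0.305 and 0.089 RPKM. With no filter Cd209a, at 0.196 and 0.305 RPKM in EO771 and no more than 0.042 elsewhere, differed among the models (adjusted p = 0.0039).

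**Figure D5:**
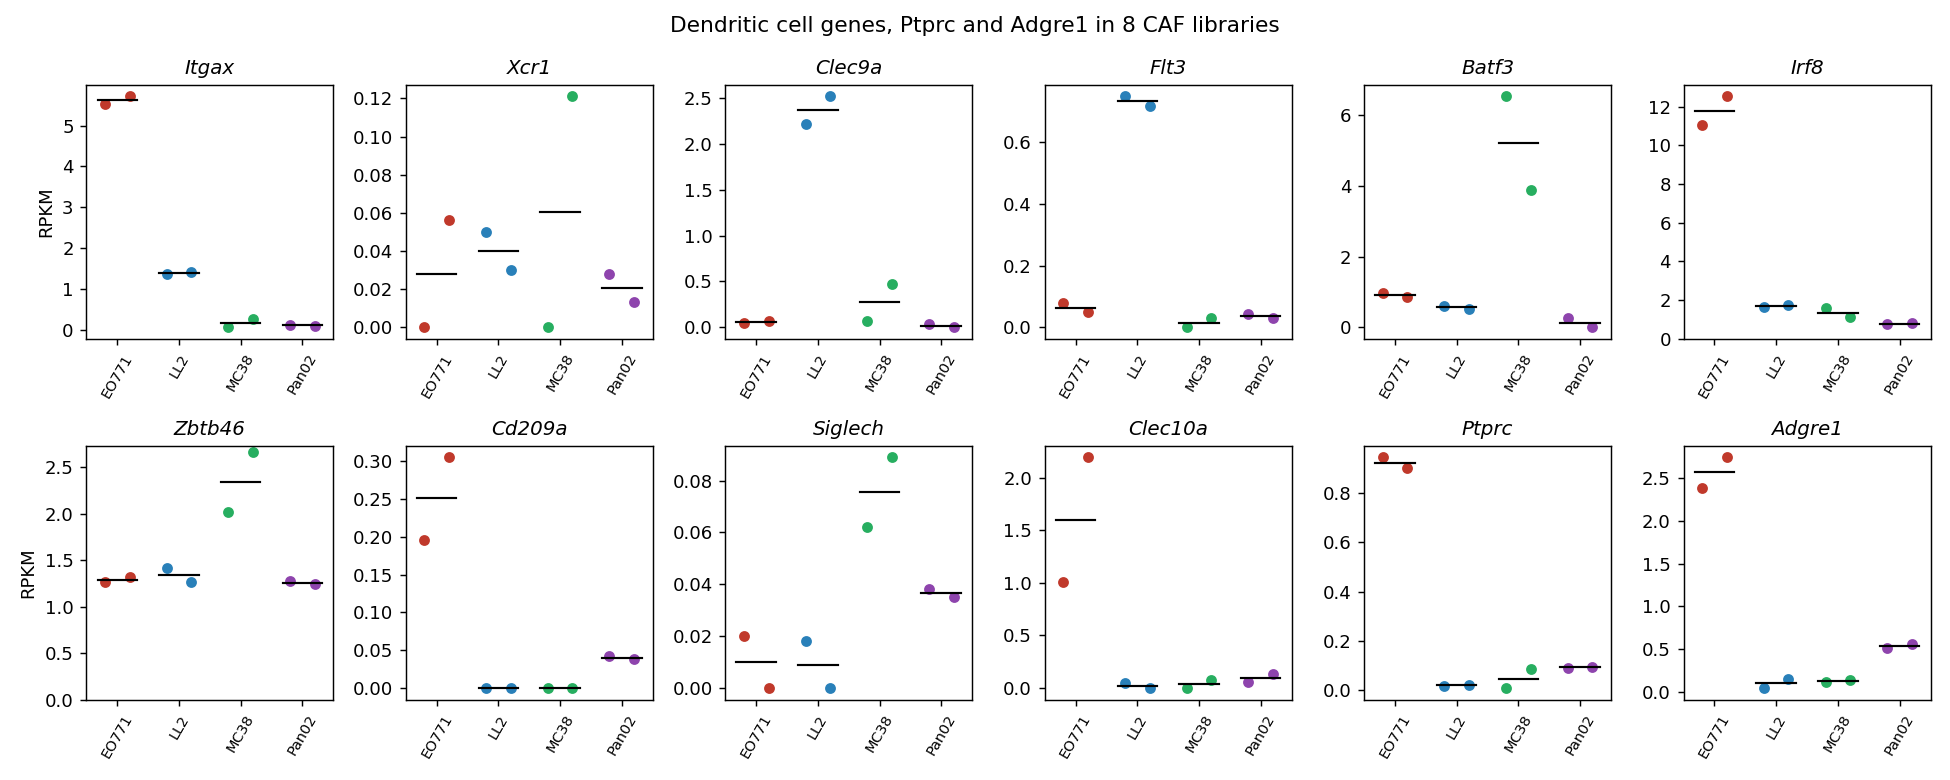
RPKM of the 10 genes, of the leukocyte gene Ptprc and of the macrophage gene Adgre1 in the sorted CAF libraries, 1 point per library and a bar at the mean of the 2 libraries of a model. Clec9a is highest in LL2 (2.22 and 2.52), where Ptprc is at 0.017 and 0.021, and Itgax, Irf8 and Clec10a are highest in EO771, together with Ptprc and Adgre1.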

How the data were processed

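Poly(A) RNA was sequenced from unstranded libraries. The authors aligned reads with STAR 2.5.0c to mm10 and counted exon reads with HOMER; the deposited tumor table holds estimated counts per RefSeq transcript in steps of 0.5, and the deposited CAF table holds RPKM. The submitters' processing notes also name DESeq2. Without strand, antisense reads cannot be told from sense. Here, 1 transcript per symbol was kept by largest mean in the tumor and the CAF data separately, and fractional counts were rounded up. Clec9a, Siglech and Clec10a thus rest on different transcripts in tumors and CAFs. Tumor counts were tested with edgeR 4.0.16 (TMM, filterByExpr, quasi-likelihood) over all 15 tumors, and CAF values with limma 3.58.1 on log2(RPKM + 1) for genes of at least 1 RPKM in 2 libraries, and again with no filter, the fit whose p-values are given per gene. Calls are adjusted p under 0.05. Rows without a symbol held 2.1e-05% of tumor counts, and 5 columns of the tumor and CAF tables together were not used. Figures were drawn with matplotlib 3.10.9, and tests were tried on simulated data.

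The 10 genes and the other lists were chosen with earlier results of these data known. All 10 are named, and from each other list at most the 4 genes of smallest adjusted p over the models, with Ptprc, Flt3l, Csf2, Xcl1, Ccr7, Cd79a, Ms4a1 and Adgre1. Fap was named as the sorted marker. Tumors were grouped by the cell-line label. Intervals and the limit of 3 counts cover counting error only.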

Additional observations from a re-analysis of the deposited data

How the results depend on the processing

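Of 1606 member values recomputed under alternatives, 1462 kept direction and side of the threshold, 63 lost and 51 gained a call, and 30 changed sign, none of which had passed the test. The F test counted 7 to 9 members without any 1 tumor, where 14127 to 14748 of all genes passed. CAFs had 4 to 6 without any 1 library (the filter removes a gene that then passes in only 1 library), where 8800 to 11472 of all genes passed. Members called ranged from 1 to 5 in B16, 2 to 8 in EO771, 3 to 7 in LL2, 0 to 3 in MC38, 3 to 6 in Pan02, and 2 to 10 for neighbouring pairs. Of all genes, 8727 to 10419 passed in B16, 6756 to 9040 in EO771 and 5236 to 7087 in LL2. In MC38 6723 to 8552 passed, and in Pan02 8419 to 9718. The highest EO771, LL2 and B16 counts came without Pan02 tumor 1, where more of all genes also passed. MC38 was at 0 without MC38 tumor 2. DESeq2 1.42.0 called 4 in B16 and 3 in MC38, total-count scaling 1 in B16, and asking also for a log2 difference of 1 or more left 1 in B16 and 0 in MC38. Of all 15732 genes tested, DESeq2 called 10177 in B16 and 8246 in MC38, and total-count scaling 9991 in B16. At the log2 threshold all genes were not counted. Without LL2 tumor 3 and Pan02 tumor 2 together, chosen after seeing the data, MC38 had 2 (8045 of all 16027 genes passed) and neighbouring pairs 7. The causes were not tested. Total-count scaling shifted the median log2 fold change of all genes by 0.14 in MC38 and -0.12 in Pan02, and in MC38 65.5% of calls were then higher, against 52.6%. 

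Changes of sign came in values near 0. Without any 1 tumor the ranges were -0.11 to 0.45 for Batf3 in MC38, -1.03 to 0.56 for Clec9a in Pan02, -0.039 to 0.30 for Itgax in MC38 and -0.023 to 0.46 for Zbtb46 in Pan02. For Irf8 they were -0.21 to 0.0017 in EO771, -0.044 to 0.32 in MC38 and -0.45 to 0.38 in Pan02. For Siglech they were -0.24 to 0.33 in B16, -0.85 to 0.56 in EO771, -1.10 to 0.14 in LL2, -0.57 to 0.044 in MC38 and -0.96 to 0.97 in Pan02. With the 2 tumors left out together, Clec9a in Pan02 was -1.04, Irf8 0.13 in EO771 and -0.32 in Pan02, and Siglech 0.54 in B16, 0.25 in MC38 and -0.75 in Pan02. Irf8 in Pan02 was -0.060 under total-count scaling, and Siglech in B16 0.014 with the longest transcript.

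Deviations of same-numbered tumors correlated weakly (30 pairs, r = -0.17 to 0.26, 9 over 0.1). Tumors of different numbers were not correlated for comparison, so these values cannot tell whether the numbers pair the tumors. With the replicate block, 4 members were called in B16, where 9959 of all 15732 genes were, and Clec9a in Pan02 was -0.020. No paired analysis was possible because the CAF columns carry no replicate numbers.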
